A study of Homo sapiens with 2 samples.

Results

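The loci of the 3 E protein genes (TCF12, TCF3 and TCF4) and the 4 ID genes (ID1, ID2, ID3 and ID4) were examined in a TCF12 ChIP-seq experiment in Hep3B cells, an established human hepatocellular carcinoma (HCC) line. The ChIP library was made with the TCF12 antibody CST11825 and was compared with an input library, labelled as having no ChIP antibody, from the same line. The labels name no treatment or genetic change for the cultures, which were grown in DMEM with serum. There was 1 library of each kind, so no value below has a replicate check and no test between conditions was possible. The intervals printed below are exact 95% Poisson intervals and cover counting error only. For each gene, a window was taken that joined the gene and 50 kb on both sides of its transcription start site (TSS) on hg19, and every peak of the MACS table with at least 1 bp in a window was a member. The 7 windows covered 1336 kb and held 21 of the 64251 listed peaks. The table lists everything past a p of 0.05 per position, and the identity of the cells could not be checked from it.

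E proteins are basic helix-loop-helix transcription factors. They bind DNA as dimers, either with each other or with tissue-restricted partners, through their basic region at the E-box, a word of the form CANNTG, where N is any base. ID proteins have the helix-loop-helix but lack the basic region, so a dimer of an ID protein with an E protein does not bind the E-box. ID genes are well known targets of BMP signalling through SMAD proteins and are often expressed in proliferating or undifferentiated cells, and E proteins and ID proteins are commonly described as an activator and inhibitor pair. Binding of an E protein at the genes of its own family or of its inhibitors would be a form of feedback, and the question put to the peak table was whether it lists peaks at these loci beyond what their chromosomes show.

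The RefSeq promoter sequences of the 4 ID genes are shown first, because the start site is where a direct hit of TCF12 on its inhibitors would be looked for. Each is 5′ to 3′ on the gene's strand and runs from 250 bases before to 50 bases after the start site. CANNTG words are in capitals.
ID1 promoter, GRCh38.p14 chr20:31605039-31605338, plus strand: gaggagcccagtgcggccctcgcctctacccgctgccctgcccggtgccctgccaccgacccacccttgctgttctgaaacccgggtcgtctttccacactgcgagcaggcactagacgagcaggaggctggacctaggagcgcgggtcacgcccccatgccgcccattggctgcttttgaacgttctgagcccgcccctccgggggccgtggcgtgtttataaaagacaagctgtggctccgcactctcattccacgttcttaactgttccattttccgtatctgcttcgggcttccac
ID2 promoter, GRCh38.p14 chr2:8681806-8682105, plus strand: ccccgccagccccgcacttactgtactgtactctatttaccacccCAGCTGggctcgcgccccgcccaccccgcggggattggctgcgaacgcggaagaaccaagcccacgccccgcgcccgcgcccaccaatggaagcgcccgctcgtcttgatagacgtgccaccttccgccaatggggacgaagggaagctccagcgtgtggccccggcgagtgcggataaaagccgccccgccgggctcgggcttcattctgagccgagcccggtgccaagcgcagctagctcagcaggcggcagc
ID3 promoter, GRCh38.p14 chr1:23559452-23559751, minus strand: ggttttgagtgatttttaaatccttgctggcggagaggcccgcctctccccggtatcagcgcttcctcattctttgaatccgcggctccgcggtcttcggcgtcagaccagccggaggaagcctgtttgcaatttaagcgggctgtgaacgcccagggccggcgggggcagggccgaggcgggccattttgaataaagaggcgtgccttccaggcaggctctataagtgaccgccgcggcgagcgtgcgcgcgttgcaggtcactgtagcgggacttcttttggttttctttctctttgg
ID4 promoter, GRCh38.p14 chr6:19837120-19837419, plus strand: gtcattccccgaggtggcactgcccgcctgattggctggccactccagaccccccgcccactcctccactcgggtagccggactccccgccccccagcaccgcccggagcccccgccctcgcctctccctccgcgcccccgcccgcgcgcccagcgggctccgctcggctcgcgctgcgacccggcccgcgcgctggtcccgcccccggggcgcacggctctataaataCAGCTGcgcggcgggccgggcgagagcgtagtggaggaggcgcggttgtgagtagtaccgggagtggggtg

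The ID2 and ID4 promoters each held 1 CANNTG word, and in both it was CAGCTG. It began 205 bases before the start site in ID2 and 21 bases before it in ID4. The ID1 and ID3 promoters held none. CANNTG and CAGCTG read the same on both strands, and every CAGCTG is also a CANNTG. Of 35116 RefSeq promoter windows of this length, 68.7% held a CANNTG, 17.9% held a CAGCTG, and 20.6% held the related word CACCTG or its form on the other strand, which reads CAGGTG. RefSeq lists 1 start for TCF3, 5 for TCF12 and 10 for TCF4. The TCF3 promoter held no CANNTG, 2 of the 5 TCF12 promoters held 1 each (CACGTG and CATGTG), and 7 of the 10 TCF4 promoters held 1 or 2. Over all 20 promoters of the 7 genes, 11 held a CANNTG, 2 a CAGCTG and 0 a CACCTG. These sequences are on GRCh38 and the peaks are on hg19, so peaks were not laid over them, and a word is only a match of letters.

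No peak was listed within 2.5 kb of the TSS used for any of the 7 genes. Within 5 kb, 2 genes had a peak (TCF12 and ID1), and within 10 kb there were 3 (TCF12, TCF3 and ID1). All distances are to 1 start per gene. RefSeq lists 5 starts for TCF12 and 10 for TCF4, and distances to the others were not measured, so the places of these genes in the order hold for the start used. By the nearest edge of a peak, the order was TCF12 at 3.33 kb, ID1 at 4.16 kb, TCF3 at 8.18 kb, ID4 at 10.5 kb, TCF4 at 36.8 kb, ID3 at 43.9 kb and ID2 at 105 kb. To show how common such distances are, positions were taken every 1 kb along each gene's chromosome. As short a distance to a listed peak as at the gene was found for 20.5% of the positions of chromosome 15 for TCF12, 26.1% of chromosome 20 for ID1, 42.3% of chromosome 19 for TCF3, 35.4% of chromosome 6 for ID4, 45.0% of chromosome 18 for TCF4, 70.8% of chromosome 1 for ID3 and 90.9% of chromosome 2 for ID2. For each of the 7 genes, the share was thus 20.5% or more. Shares of positions with a peak within 2.5, 5 or 10 kb were not counted, so the numbers of genes at these limits are descriptions only. On chromosome 15, 20.5% of positions lay within 3.33 kb of a peak, so most positions there have none within 2.5 kb.

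Of the 7 windows, 6 held at least 1 peak. That is close to what the chromosomes give, since at least 1 peak was found in 100% of the windows of the TCF12 size on chromosome 15, 89.6% of those of the TCF3 size on chromosome 19, 88.1% for TCF4 on chromosome 18, 88.0% for ID1 on chromosome 20, 75.9% for ID2 on chromosome 2, 73.4% for ID3 on chromosome 1 and 76.9% for ID4 on chromosome 6. For this comparison, each chromosome was tiled into adjacent windows of the size of the locus from its first to its last listed peak, and those that touched the locus were left out. The position of the 21 peaks differed between the families. Inside the genes, by the hg19 spans used, were 6 peaks, all of them in E protein genes, whose TCF12 and TCF4 windows are nearly all gene. None lay inside an ID gene, the longest of which (ID4) spans 4815 bp. Upstream lay 10 peaks and downstream 5. The TCF12 and TCF4 windows stop at the end of the gene, so no downstream peak could be counted there. At the ID loci, whose windows reach past the gene on both sides, 6 lay upstream and 5 downstream.

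TCF12 encodes the E protein that was precipitated. Its gene lies on chromosome 15 of hg19 from 57210833 to 57580714 on the plus strand, and the 420 kb window held 7 peaks (interval 2.81 to 14.4). Of these, 3 lay upstream and 4 inside the gene. The peak nearest to the TSS, at chr15:57207267-57207501, is 235 bp long, and its summit is 3424 bp upstream of the TSS. It had 4 ChIP reads (interval 1.09 to 10.2) over a background of 0.763 reads, the level that MACS assigns when the input nearby gives no more, with a fold enrichment of 2.53 and a −log10 p of 2.11. Here a read count is the number of extended ChIP reads over the summit, and the background is the number expected from the input after the ChIP library is scaled to it. This peak shared its strength with 3 others of the locus, at 41987 bp upstream and at 57595 and 99908 bp into the gene, so that 4 peaks are the strongest of the locus by equal values. Of all listed peaks, 73.6% had a −log10 p at least as high.

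The other 3 peaks of TCF12 were weaker. That 33662 bp upstream had 3 reads, the smallest number with which any peak is listed, and a −log10 p of 1.37. Those 250043 and 306929 bp into the gene had 4 reads each over a background of 1.00 and a −log10 p of 1.72. The strengths of the 7 peaks thus spanned 3 to 4 reads. The number of peaks was lower than the mean of 15.4 in 194 windows of this size on the chromosome, and 82.0% of these windows held at least 7. A peak as strong as the strongest at TCF12 was found in 99.5% of them. Among the 23 windows within 5 Mb of the TSS, where the mean was 11.3, 82.6% held at least 7.

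TCF3 encodes an E protein best known for its part in B cell development. The gene lies on chromosome 19 from 1609289 to 1652328 on the minus strand. Its 100 kb window held 1 peak, at chr19:1643986-1644146, inside the gene and with its summit 8230 bp downstream of the TSS. With 11 ChIP reads (interval 5.49 to 19.7) it had the most reads of the 21 peaks. Its background was also the highest of them, at 3.00, which equals 3 input reads in 161 bp. The fold enrichment was 2.63 and the −log10 p 2.96, reached or passed by 20.2% of all listed peaks. Of 587 windows of this size on the chromosome, 89.6% held at least 1 peak, with a mean of 3.85, and 50.8% held a peak at least as strong. Among the 64 within 5 Mb the mean was 3.41, and 93.8% held at least 1. Around TCF3, the median background of the 33 listed peaks within 1 Mb of the TSS was 2.58, and 0% of them sat at the genome-wide level, against 28.4% on the whole chromosome.

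TCF4 encodes the E protein for which plasmacytoid dendritic cell and nervous system development are best known, and is not the Wnt effector that once shared this name. The gene lies on chromosome 18 from 52889562 to 53255860 on the minus strand, and the 416 kb window held 2 peaks (interval 0.242 to 7.22). One, at chr18:53099094-53099413, lay 156686 bp into the gene, and the other, at chr18:53292626-53292786, lay 36825 bp upstream of the TSS. Both had 4 reads over 0.763, a fold enrichment of 2.53 and a −log10 p of 2.11. They were as strong as the strongest peaks of TCF12. The mean of 185 windows of this size was 4.61, and 73.5% of them held at least 2 peaks. Among the 23 windows within 5 Mb the mean was 2.83, and 52.2% held at least 2. The surroundings held few peaks as well. Within 1 Mb of the TSS there were 4 in all (2.00 per Mb, where the chromosome average was 11.1), and 16 of the 20 bins of 100 kb held none. The RefSeq entry for TCF4 on GRCh38 is 47474 bp longer than the hg19 span used here. Its outermost promoter, at GRCh38 chr18:55635908-55636207, lies well upstream of the next, at chr18:55589762-55590061. The upstream peak is 36825 bp from the TSS used, so by these distances it lies inside the longer form of the gene. Positions were not converted between the builds, and the peak is counted as upstream of the hg19 span.

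ID1 encodes a dominant negative inhibitor of E proteins. The gene is short, from 30193086 to 30194318 on chromosome 20, plus strand. Its window held 1 peak, at chr20:30188613-30188923, 311 bp long and with its summit 4276 bp upstream of the TSS. It is the ID gene peak nearest to a start site. It had 6 reads (interval 2.20 to 13.1) over a background of 2.25, which equals 14 input reads in 1000 bp. The fold enrichment of 1.90 was the lowest of the 21 peaks, and the −log10 p was 1.56, reached or passed by 88.4% of all listed peaks. Of 626 windows on the chromosome, 88.0% held at least 1 peak and the mean was 3.99. Within 5 Mb, 65.7% of 99 windows did. The 626 windows include 31 that lie in stretches of over 1 Mb without a listed peak. Leaving these out, 92.6% of the windows on the chromosome held at least 1 peak. How many of the 31 are among the 99 was not counted.

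ID2 encodes an inhibitor with roles in lymphoid and neural development and in the cell cycle. The gene lies on chromosome 2 from 8822113 to 8824583 on the plus strand, and its window held 0 peaks (interval 0 to 3.69). On the same chromosome 24.1% of 2428 windows held 0 peaks, and the mean was 2.32. The nearest peak, at chr2:8717119-8717279, was 105 kb upstream and had 3 reads and a −log10 p of 1.37. Widening the window to 100 kb on both sides still left 0 peaks. A site at the genome-wide background needed 3 reads to pass the cutoff of the table, so sites with 1 or 2 reads at ID2 would not have been listed.

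ID3 encodes an inhibitor known from lymphocyte development. The gene lies on chromosome 1 from 23884421 to 23886285 on the minus strand. Its window held 3 peaks (interval 0.619 to 8.77), all of them 43.9 kb or more from the TSS. The nearest, at chr1:23930205-23930394, has its summit 44062 bp upstream, and a peak of equal strength, at chr1:23837012-23837355, has its summit 49204 bp downstream. Each had 5 reads (interval 1.62 to 11.7) over a background of 1.00. The fold enrichment was 2.66 and the −log10 p 2.44 for both. The other peak, 45960 bp downstream, had 4 reads and a −log10 p of 2.11. The count was just above the mean of 2.76 in 2489 windows of the chromosome, of which 41.9% held at least 3, and 56.2% held a peak as strong. It was below the mean of 3.65 in the 99 windows within 5 Mb of the TSS, of which 64.6% held at least 3.

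ID4 encodes the inhibitor of the family that is most studied in neural stem cells and the mammary gland. The gene lies on chromosome 6 from 19837617 to 19842431 on the plus strand, and its 100 kb window held 7 peaks (interval 2.81 to 14.4), as many as the 420 kb of TCF12. Upstream lay 4 and downstream 3. This is 70.0 peaks per Mb, where the chromosome average was 25.7 and the TCF12 window had 16.7. The mean of 1707 windows was 2.57, and 8.79% of them held at least 7 peaks. Among the 99 windows within 5 Mb the mean was 3.72 and 12.1% held as many. ID4 is the locus with the highest count per Mb among 7, so this share is a description and carries no test.

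The strongest of the 21 peaks were at ID4. Those at chr6:19787816-19788034 and chr6:19816435-19816602, with summits 49667 and 21101 bp upstream of the TSS, each had 6 reads (interval 2.20 to 13.1) over 0.763, a fold enrichment of 3.51 and a −log10 p of 3.84. A −log10 p as high was listed for 9.21% of all peaks, and 19.7% of the same-sized windows on chromosome 6 held such a peak. The next at ID4, 20327 bp downstream, had 5 reads, a fold enrichment of 3.02 and a −log10 p of 2.94. The peak 30237 bp upstream had 8 reads, the most at any ID gene, but over a background of 2.42 its −log10 p was 1.92. The peak 15669 bp upstream had 5 reads over 1.00 and a −log10 p of 2.44, and that 47696 bp downstream had 4 reads and a −log10 p of 2.11. The peak nearest to the TSS, at chr6:19848112-19848272 and 10567 bp downstream, was the weakest, with 3 reads and a −log10 p of 1.37. At TCF12, TCF4 and ID3 the peak nearest to the TSS was tied with others for the highest value of its locus. Both TCF4 peaks had equal values, so these ties cannot show whether strength gathers near the TSS.

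Just beyond the ID4 window was a stronger peak. It lies at chr6:19784453-19784678, 52.9 kb upstream of the TSS and 2.94 kb outside the window. It had 10 reads (interval 4.80 to 18.4) over a background of 0.966. Its fold enrichment was 4.90, its −log10 p 6.07 and its q 0.259. It is 1 of the 222 peaks of the table with a q under 1, and 11 of these are on chromosome 6. The last peak inside the window, 49667 bp upstream, had 6 reads and a q of 1. The 50 kb limit therefore falls between them. With 100 kb on both sides, a width chosen after seeing the data, the ID4 window held 11 peaks, 1 of them with a q under 1. The other 6 loci held 0 such peaks. Peaks with a q under 1 were 0.346% of the table. How many windows of that width hold 11 peaks or a q under 1 was not counted, so these counts do not set ID4 apart. The nearest peak with a q under 1 was 0.539 Mb away for ID1, 3.26 Mb for TCF12, 6.98 Mb for ID3, 24.1 Mb for TCF4, 32.8 Mb for ID2 and 39.9 Mb for TCF3. The share of positions as near to such a peak was not counted.

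The counts of the families were set against the windows of their chromosomes. The E protein windows held 10 peaks where the means of the same-sized windows add up to 23.8, a ratio of 0.420, and each of the 3 was under its mean. Windows of 1 size varied widely, with the middle 50% of them between 8 and 21 peaks at the TCF12 size, 2 and 5 at the TCF3 size and 1 and 7 at the TCF4 size. As few peaks as at the gene, or fewer, were held by 22.7% of the windows for TCF12, 20.8% for TCF3 and 42.2% for TCF4, so none of the 3 counts was rare on its chromosome. With windows within 5 Mb of each TSS as the comparison, the means add up to 17.5, and the ratio was 0.572. The ID windows held 11 peaks where 11.6 is the sum of the means, a ratio of 0.945. Without ID4 the ID windows held 4 peaks against 9.07, a ratio of 0.441. The ratios carry no interval, since windows differ by more than counting error, and the difference between the families was not tested.

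The strength of the 21 peaks was then set beside that of the whole table. A q under 1 was reached by 0 of them and by 0.346% of all listed peaks. A −log10 p of at least 3 was reached by 2 of the 21 (9.52%) and by 18.7% of all peaks, and a fold enrichment of at least 3 by 3 (14.3%) and by 31.9% of all. The peaks past either threshold were all at ID4. Between 3 and 5 reads lay at the summits of 16 peaks (76.2%), against 69.8% over the table. The background was at the genome-wide level for 13 (61.9%), against 48.2%, and 11 (52.4%) had the shortest length that the caller allows, 161 bp, against 37.2%. The median −log10 p was 2.11 at the 7 loci and 2.34 over the table, and the median fold enrichment was 2.53 for both. With so few peaks these shares are descriptions of the 21 only.

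**Figure D1:**
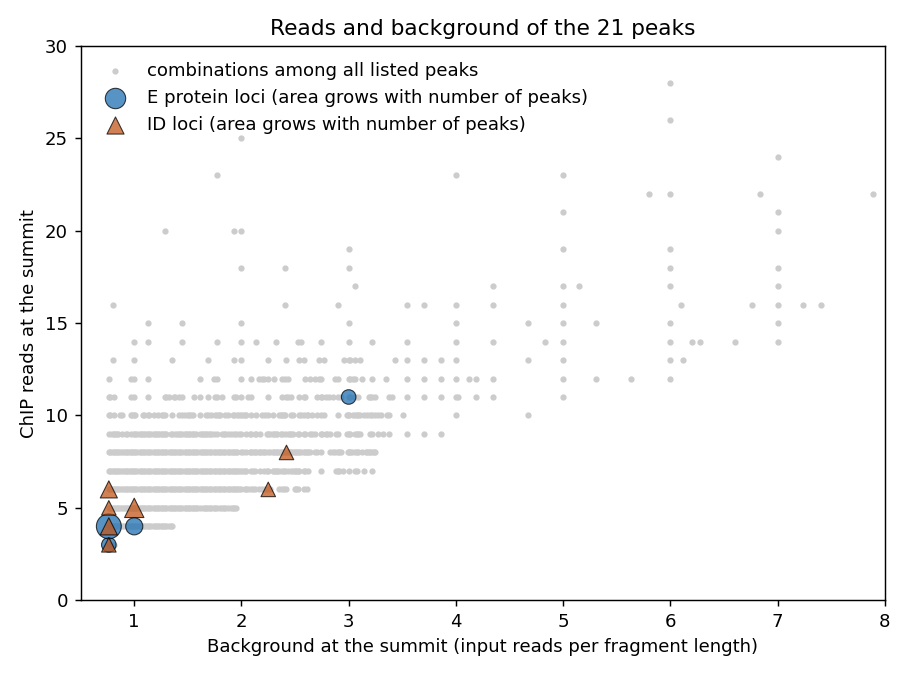
ChIP reads at the summit (vertical axis) against the background at the summit in input reads per fragment length (horizontal axis) for the 21 peaks, circles for E protein loci and triangles for ID loci, with symbol area growing with the number of peaks at that point. Grey dots are combinations found among all listed peaks with at most 30 reads and a background of at most 8. Most of the 21 lie in the lower left corner at 3 to 6 reads, and the TCF3 peak at 11 reads stands over a background of 3.00.

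Reads were next compared between the families. At the E protein loci 8 of 10 peaks had 4 reads, and the TCF3 peak was the single one above that. At the ID loci the reads ran from 3 to 8 with a median of 5. The order of the loci by their strongest peak was ID4 (−log10 p of 3.84), TCF3 (2.96), ID3 (2.44), TCF12 and TCF4 (both 2.11) and ID1 (1.56). In reads these are 6, 11, 5, 4, 4 and 6, and the counting intervals of all of them overlap, so reads do not separate the loci at this depth. The order by −log10 p depends on the background as well, which these intervals do not cover. The ID4 and ID1 peaks both had 6 reads, over backgrounds of 0.763 and 2.25. Whether the order would hold in another library could not be checked. The effective genome size in the header of the table is the mouse preset of MACS. With the human preset in its place the genome-wide background would be 0.528. The −log10 p would then be at most 4.72 for the strongest ID4 peaks and at most 2.67 for those at TCF12 and TCF4, while the TCF3 and ID1 values rest on nearby input and stay at 2.96 and 1.56.

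The wider surroundings followed the windows in part. In the 2 Mb centred on the TSS there were 42 peaks at TCF12 (21.0 per Mb, where the chromosome average was 36.3), 33 at TCF3 (16.5 against 38.3) and 78 at ID4 (39.0 against 25.7). The numbers at ID2 (24.0 against 23.2 per Mb) and ID3 (28.0 against 27.6) were near the average of the chromosome. At ID1 there were 97 peaks (48.5 against 39.7), with 21 in the 1 Mb upstream and 76 in the 1 Mb downstream. Of its 20 bins of 100 kb, 4 were empty, all of them upstream. Whether reads can be placed in these bins was not checked, so the 2 sides may not be alike in this. The bins next to the ID2 start site were empty on both sides, while the bin between 100 and 200 kb upstream held 8. The high count at ID4 was thus shared by its neighbourhood, with 39 peaks on each side, and was not limited to the 100 kb around the gene.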

How the data were processed

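Chromatin from Hep3B cells was precipitated with a TCF12 antibody and sequenced beside an input. Per the labels, the submitters' processing notes name CASAVA 1.4, Bowtie2 2.0, Picard 2.19.0 and MACS2 2.1.2 and the build hg19. The authors ran MACS in single-end mode with a p cutoff of 0.05 and 1 tag per position. The effective genome size was 1870000000 bp and fragments were taken as 161 bp. Tags used were 10254561 (ChIP) and 8862145 (input). The deposited pileup is a signal: ChIP reads, extended to the fragment, over the summit and multiplied by 0.864. The deposited fold enrichment is a ratio with a pseudocount on both terms. The deposited −log10 of the p-value and q-value are the caller's, and q was used as listed although the header states that it is not calculated.

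Reads (whole within 0.006 scaled reads for 100% of peaks) and background were recovered from pileup and fold enrichment, and the recomputed −log10 p differed by at most 5.3e-05. Gene spans on hg19 came with the choice of loci, and no hg19 annotation or genome was used. RefSeq lengths on GRCh38 differed from them by 3339 bp at TCF12, 47474 bp at TCF4 and under 300 bp elsewhere. Other genes of the E protein network and E-box words under peaks were not analysed here. All 7 genes matched the RefSeq promoter table. Peaks named singly are the strongest and the nearest of each locus and the 10 strongest of all, and the remaining peaks are given because the loci hold few. Loci and comparisons were chosen with earlier results of these data known. Window counting was tested on simulated data. Python 3.11.15, numpy 2.4.6, pandas 2.3.3, scipy 1.17.1 and matplotlib 3.10.9 were used.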

Additional observations from a re-analysis of the deposited data

How the results depend on the processing

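The 21 peaks and the 6 loci with a peak were the same in number when the summit or at least 50% of the peak had to lie inside, and 16 peaks at 6 loci remained with 50 kb around the TSS alone. A fold enrichment of at least 3 left 3 peaks at 1 locus, a −log10 p of at least 3 left 2 at 1 locus, and a −log10 q above 0 left 0 peaks at 0 loci. With 10 kb on both sides of the TSS there were 3 peaks at 3 loci. With 100 kb, chosen after seeing the data, there were 32 peaks at 6 loci. The median −log10 p of 2.11 became 3.84 under both strength thresholds, which keep the stronger peaks and so raise it by design. It became at most 2.67 with the human genome size. The median distance from a TSS to its nearest peak was 10.5 kb to an edge and 10.6 kb to a summit. It was 135 kb with either strength threshold and 6980 kb with a −log10 q above 0, and a shorter list of peaks can only lengthen it. Of comparisons added after seeing the data, the ratio of peaks to the window mean at the ID loci fell from 0.945 to 0.441 without ID4. It was 0.862 with windows within 5 Mb and 0.899 without windows in stretches of over 1 Mb that hold no peak. The ratio at the E protein loci was 0.420, 0.572 and 0.411 in the same order. Shifting the tiling by 0.5 of a window left the share of windows with as many peaks within its exact 95% binomial interval at all 7 loci. That interval treats adjacent windows as independent and may be too narrow. Taking windows within 5 Mb of the TSS moved it beyond that interval at 5 of the 7 (TCF3 89.6% to 93.8%, TCF4 73.5% to 52.2%, ID1 88.0% to 65.7%, ID3 41.9% to 64.6%, ID4 8.79% to 12.1%), and leaving out windows in stretches without peaks moved it at 3 (TCF3 to 94.8%, ID1 to 92.6%, ID3 to 45.7%). No paired analysis was possible because there is 1 library in each group. At this depth, sites with under 3 reads are not listed, and single peaks of 3 to 11 reads have wide intervals.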
